A study of Mus musculus with 9 samples.

Results

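The genes described here are the negative feedback genes of the FGF and ERK pathway and its ETS transcription factor targets: Spry1, Spry2, Spry4, Spred1, Spred2, Spred3, Dusp4, Dusp6, Etv4 and Etv5. The rule lists them by name and uses no threshold on their values. The deposited table lists 78275 gene IDs, all 10 members were among them, and all 10 were among the 27773 genes that passed the filter on low counts. RNA was sequenced from mCherry-positive cells sorted from the forebrain of mouse embryos at E16.5, 48 h after in utero electroporation at E14.5. The 3 groups were sh-Gpc4 (a microRNA-embedded hairpin against Gpc4), sh-Gpc2 (a hairpin of the same kind against Gpc2) and sh-NT (a scramble hairpin), with 3 libraries each. All embryos were wild type, and the sort selected for the mCherry marker that accompanies each hairpin. Both targets are glypicans, cell-surface proteins that carry heparan sulfate chains, and the study asked how the loss of each affects the developing cortex. The labels call the cells cortical progenitors and neurons. Whether replicate libraries stem from separate embryos or litters is not stated, and the p-values cover the spread among these 9 samples alone. Libraries are called here by the numbers of their columns: 1, 3 and 4 for sh-Gpc4, 1, 2 and 4 for sh-Gpc2 and 1, 2 and 4 for sh-NT.

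An FGF bound to its receptor, with heparan sulfate as a co-receptor, activates RAS, RAF, MEK and ERK in turn. ERK phosphorylation relieves repression by Capicua (CIC) and switches on genes that include the pathway's own brakes. Sprouty proteins act near the receptor and RAS, SPRED proteins bring the RAS inhibitor neurofibromin to the membrane, and DUSP4 and DUSP6 remove the activating phosphates from ERK in the nucleus and the cytoplasm. ETV4 and ETV5 are ETS transcription factors that are widely used as readouts of FGF signalling, and in the cortex FGF signalling helps to maintain radial glia, the progenitors that line the ventricle.

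CIC binds octamers such as TGAATGAA, and the promoters of members were searched for such words, which the choice of members had not used. RefSeq promoter windows on GRCm38.p6, from 250 bases before to 50 bases after each annotated start, were searched for 7 of the 10 members in 8 windows, with more than 1 for Etv5. The octamers TGAATGAA or TCAATGAA, read on both strands, were in 2 of the 8 windows (Spred3 and Spry2) and in 2.03% of all 32851 windows. With TGAATGGA and TCAATGGA added after the promoters had been seen, 3 of the 8 windows held an octamer, the third being that of Dusp6, against 3.84% of all windows. The shorter word TGAATG, which the octamers TGAATGAA and TGAATGGA contain, was in 3 of the 8 windows (Dusp6, Etv5 and Spred3) and in 12.7% of all windows. The ETS words CCGGAAGT and ACCGGAA, the AP-1 word TGACTCA and the CRE word TGACGTCA were in 0 of the 8 windows and in 3.89%, 3.72%, 5.2% and 1.79% of all windows. A match is a description of the letters in these windows and not evidence of a bound site. The 4 stretches below show matches in the 4 genes named, with capitals on the words or their reverse complements; a further TGAATG of Spred3, 184 bases before the start, lies outside the stretch shown.
Dusp6, chr10:99262981-99263280, plus strand: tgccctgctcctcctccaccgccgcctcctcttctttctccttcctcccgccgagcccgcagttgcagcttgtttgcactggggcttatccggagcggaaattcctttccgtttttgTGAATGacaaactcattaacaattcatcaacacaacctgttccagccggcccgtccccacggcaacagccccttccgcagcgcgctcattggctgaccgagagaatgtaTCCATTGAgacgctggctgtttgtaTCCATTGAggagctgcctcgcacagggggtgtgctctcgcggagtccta
Spred3, chr7:29168614-29168693, minus strand: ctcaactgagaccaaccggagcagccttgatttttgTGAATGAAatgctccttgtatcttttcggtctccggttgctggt
Spry2, chr14:105896830-105896909, minus strand: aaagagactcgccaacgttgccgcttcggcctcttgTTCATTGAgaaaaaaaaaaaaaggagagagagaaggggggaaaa
Etv5, chr16:22438469-22438618, minus strand: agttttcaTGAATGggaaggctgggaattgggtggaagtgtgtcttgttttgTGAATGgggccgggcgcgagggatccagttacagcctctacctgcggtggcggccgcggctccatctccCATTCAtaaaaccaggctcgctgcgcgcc
The Dusp6 window held TGAATG 133 bases before the start and TCAATGGA on the opposite strand at 2 positions close to the start. The Spred3 stretch held TGAATGAA 10 bases before the start, and the Spry2 stretch held TCAATGAA on the opposite strand 54 bases before it. The Etv5 stretch held TGAATG at 3 positions, with no octamer.

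Library totals ran from 48045603 to 66538437 reads, so even Spry4, at 3.60 to 8.76 CPM (CPM, read counts per library scaled to a common size by the TMM method), was read at least 180 times in each library. Sh-Gpc4 library 3 and sh-Gpc2 library 4 stood apart from the other 7, at 46.7 and 36.6 on a first principal component that held 71.7% of the variance of 11968 genes, where the others lay between -25.8 and 15.8. In the same 2 libraries expression had the steepest negative slope on the GC content of transcripts, at -0.31 and -0.21 log2 units per 10 GC points, against -0.09 to 0.15 in the other 7. Values without these 2 libraries are given below for the members and pathway genes that they move most. The targeted transcripts themselves did not pass the threshold: against sh-NT, the log2 fold change of Gpc4 was -0.53 (SE 0.21) in sh-Gpc4 and -0.15 (SE 0.21) in sh-Gpc2. That of Gpc2 was -0.76 (SE 0.33) in sh-Gpc4 and -0.54 (SE 0.33) in sh-Gpc2, so Gpc2 was no lower under its own hairpin than under the hairpin against Gpc4. Markers matched the label in that Pax6 of radial glia was at 139 to 177 CPM, Eomes of intermediate progenitors at 79.7 to 104 CPM and Neurod2 of neurons at 260 to 487 CPM. The sort also held microglial transcripts, with P2ry12 at 4.28 to 59.2 CPM. In RNA from many cells, fewer cells of a type and less RNA per cell cannot be told apart.

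The 10 genes were not equally abundant. Per kilobase of annotated exons, Dusp4 led in sh-NT at 51.9 ± 4.86 CPM per kb (SD, n = 3). Spry2 at 18.2 ± 3.26, Etv5 at 16.1 ± 2.40 and Dusp6 at 12.6 ± 1.27 CPM per kb followed. Spry2 and Etv5 overlapped between libraries, and so did Etv5 and Dusp6. Spred1 at 5.25 ± 0.433, Etv4 at 3.69 ± 0.623, Spry1 at 2.30 ± 0.0589 and Spred2 at 1.91 ± 0.144 CPM per kb were next, without overlap between neighbours. Spred3 at 1.06 ± 0.125 and Spry4 at 1.05 ± 0.253 CPM per kb were lowest and overlapped. By its mean, Dusp6 took another place in this order under the hairpins, although its libraries overlapped those of Spry2 in both hairpin groups. Its mean level per kilobase was the second highest in sh-Gpc4, at 18.4 ± 2.32 CPM per kb, above Spry2 at 15.6 ± 1.201 and Etv5 at 9.69 ± 3.56. In sh-Gpc2, Dusp6 at 17.2 ± 4.77 CPM per kb lay beside Spry2 at 17.4 ± 4.11 and Etv5 at 14.7 ± 7.58.

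None of the feedback genes passed the test, and their values lay in both directions. In sh-Gpc4 against sh-NT, 1 member (Dusp6) was higher in every sh-Gpc4 library than in every sh-NT library, as were 10.8% of all genes tested. Dusp4, Etv4 and Etv5 were lower in every sh-Gpc4 library, as were 13.2% of all genes, and the 3 Sprouty and 3 Spred genes overlapped between the groups. No member passed an adjusted p of 0.05 in any of the 3 contrasts in edgeR's quasi-likelihood test, and neither did any of the 27773 genes tested (0%). The smallest Benjamini-Hochberg adjusted p over all genes was 0.488 for sh-Gpc4 and 0.968 for sh-Gpc2 against sh-NT, and 0.966 between the hairpins (sh-Gpc4 against sh-Gpc2). At an unadjusted p under 0.05 the test gave 2657, 712 and 804 genes in these contrasts. DESeq2 called 45 genes (0.165%) in the first contrast, none of them a member, and 0 in the others, and limma voom called 0 in all 3. The values that follow are therefore differences that did not pass the test in edgeR.

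**Figure D1:**
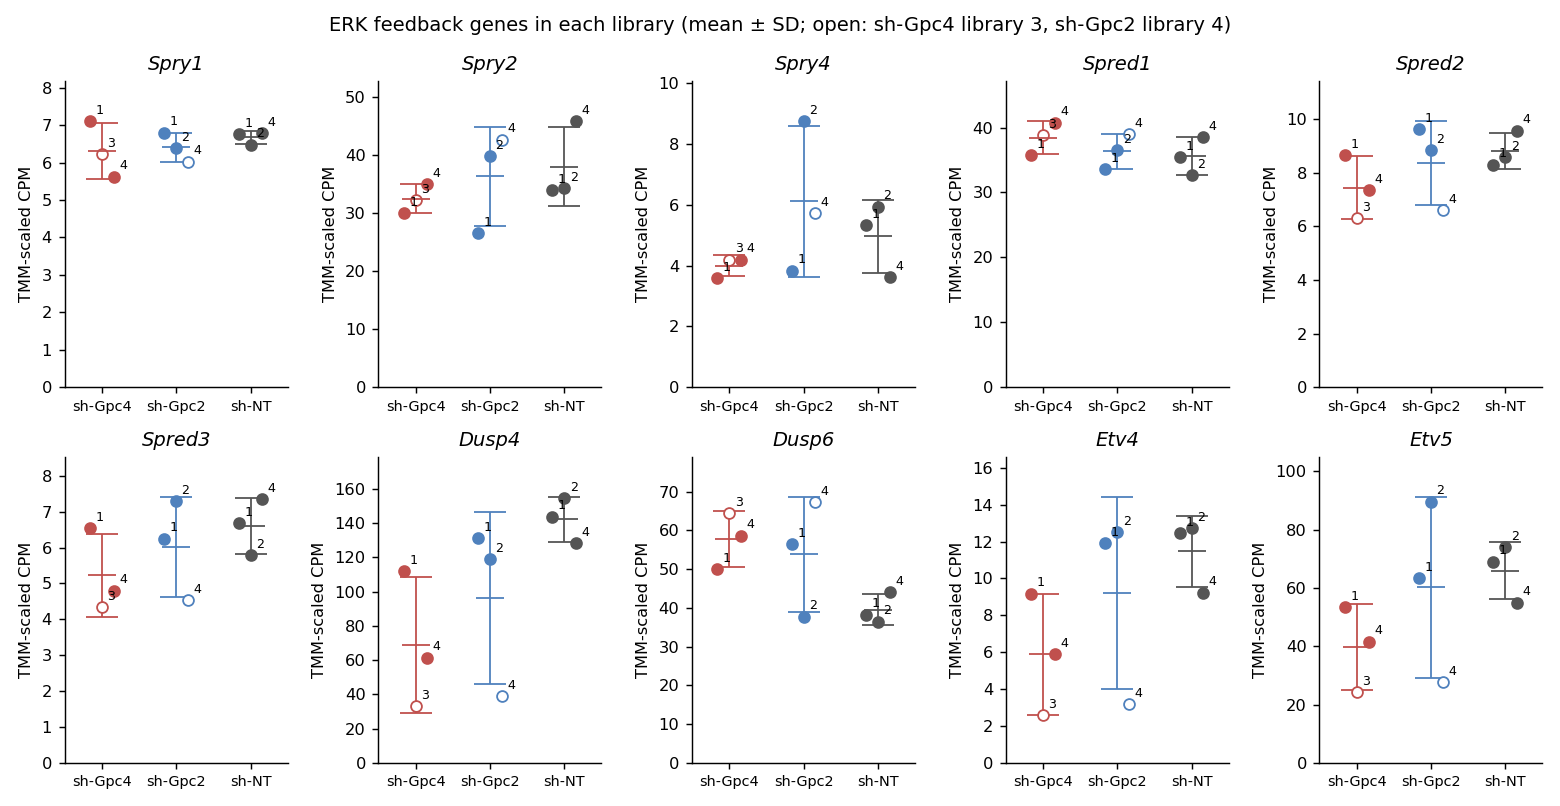
TMM-scaled CPM (y axis, from 0) of each feedback gene in the 3 libraries of sh-Gpc4, sh-Gpc2 and sh-NT; points are libraries with their column numbers, bars are the mean ± SD, and open points are sh-Gpc4 library 3 and sh-Gpc2 library 4. Dusp6 lies at 50.1 to 64.5 CPM in sh-Gpc4, above the 36.4 to 44.1 CPM of sh-NT, while the open points are the 2 lowest for Dusp4, Etv4, Etv5, Spred2 and Spred3.

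Dusp6 (ENSMUSG00000019960, GRCm38 chr10:99263231-99267489, plus strand, protein-coding), the cytoplasmic ERK phosphatase, was at 50.1, 64.5 and 58.7 CPM in sh-Gpc4 libraries 1, 3 and 4. It was at 56.4, 37.7 and 67.3 CPM in sh-Gpc2 libraries 1, 2 and 4, and at 38.2, 36.4 and 44.1 CPM in sh-NT libraries 1, 2 and 4. All 3 sh-Gpc4 libraries lay above all 3 sh-NT libraries, whereas sh-Gpc2 library 2 fell inside the sh-NT range. The edgeR estimate in sh-Gpc4 against sh-NT was a ratio of 1.46, or 0.55 on the log2 scale (SE 0.20; 95% interval, 0.11 to 0.98). The edgeR p was 0.0199 before adjustment and the adjusted p 0.488, with adjusted p of 0.359 in DESeq2 and 0.0531 in limma voom. A two-sided exact permutation test gave 0.1, the smallest p that 3 against 3 libraries allow. In sh-Gpc2 against sh-NT the log2 fold change was 0.44 (SE 0.20, 95% interval 0.004 to 0.88) with an edgeR p of 0.0482 and an adjusted p of 0.968. Dusp6 was the 1 member with an unadjusted p under 0.05 on the higher side in these contrasts, where 3.56% of all genes tested in sh-Gpc4 and 1.62% in sh-Gpc2 met the same rule. These contrasts share the sh-NT libraries, and the direct contrast of sh-Gpc4 against sh-Gpc2 gave 0.10 (SE 0.19, 95% interval -0.33 to 0.54). Without sh-Gpc4 library 3 and sh-Gpc2 library 4 the values against sh-NT were 0.45 (SE 0.17) in sh-Gpc4 and 0.24 in sh-Gpc2. In sh-Gpc2 the value was 0.25 without library 4 alone and 0.64 without library 2 alone.

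Dusp4 (ENSMUSG00000031530, chr8:34807297-34819894, plus strand), the nuclear phosphatase of the pair, lay in the other direction. It was at 112, 33.2 and 61.5 CPM in sh-Gpc4, at 131, 119 and 39.0 CPM in sh-Gpc2 and at 144, 155 and 128 CPM in sh-NT. Every sh-Gpc4 library lay below every sh-NT library, and the highest sh-Gpc2 library overlapped the lowest of sh-NT. The means were 68.9 ± 39.9 CPM in sh-Gpc4, 96.4 ± 50.1 CPM in sh-Gpc2 and 142 ± 13.3 CPM in sh-NT (SD, n = 3 each), with a wider spread in either hairpin group than in sh-NT. The log2 fold change in sh-Gpc4 against sh-NT was -1.05 (SE 0.48, 95% interval -2.12 to 0.03; adjusted p 0.488 in edgeR and 0.0531 by voom). The value of sh-Gpc2 against sh-NT was -0.56 (SE 0.47), and that between the hairpins, sh-Gpc4 against sh-Gpc2, was -0.49 (SE 0.48). Without the 2 libraries that stood apart these were -0.73 (SE 0.22), -0.20 and -0.53. Leaving out 1 library at a time moved the value between the hairpins over -1.03 to -0.15, with sh-Gpc4 library 1 left out at the low end and sh-Gpc4 library 3 at the other. Leaving out sh-Gpc4 library 1 alone gave -1.59 in sh-Gpc4 against sh-NT, and leaving out library 3 alone gave -0.71.

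Etv5 (ENSMUSG00000013089, chr16:22381309-22439719, minus strand), the ETS gene with the higher level per kilobase, was at 53.4, 24.3 and 41.6 CPM in sh-Gpc4, at 63.3, 89.7 and 27.7 CPM in sh-Gpc2 and at 69.1, 73.9 and 54.9 CPM in sh-NT. Sh-Gpc2 held both the highest library of all 9 (library 2) and the second lowest (library 4). The sh-Gpc4 libraries lay below those of sh-NT, although the nearest pair, sh-Gpc4 library 1 and sh-NT library 4, differed by less than the SD of either group. The log2 fold change was -0.73 (SE 0.39, 95% interval -1.61 to 0.15) in sh-Gpc4 and -0.13 (SE 0.39) in sh-Gpc2, each against sh-NT, and -0.60 (SE 0.39) between sh-Gpc4 and sh-Gpc2. Without the 2 libraries apart they were -0.48 (SE 0.18), 0.20 and -0.68 (SE 0.20), the sh-Gpc2 value changing sign. The value between the hairpins also rested on single libraries, at -0.19 without sh-Gpc2 library 2 alone and -0.95 without sh-Gpc2 library 4 alone. Against sh-NT, the sh-Gpc4 value was -0.47 without sh-Gpc4 library 3 alone.

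Etv4 (ENSMUSG00000017724, chr11:101769742-101785371, minus strand) had nearly the same order of libraries at a lower level. It was at 9.17, 2.59 and 5.89 CPM in sh-Gpc4, at 11.9, 12.5 and 3.19 CPM in sh-Gpc2 and at 12.4, 12.7 and 9.23 CPM in sh-NT. The lowest sh-NT library and the highest sh-Gpc4 library all but touched. The log2 fold change was -0.97 (SE 0.52, 95% interval -2.14 to 0.21) in sh-Gpc4 and -0.31 (SE 0.52) in sh-Gpc2, each against sh-NT, and -0.65 (SE 0.52) between sh-Gpc4 and sh-Gpc2. Without the 2 libraries apart the values were -0.62 (SE 0.22), 0.08 and -0.70 (SE 0.23). Between the hairpins it was -0.29 without sh-Gpc4 library 3 alone and -1.12 without sh-Gpc4 library 1 alone. The edgeR adjusted p of Etv4 and of Etv5 in sh-Gpc4 against sh-NT was 0.488, and limma voom gave 0.0631 for Etv4 and 0.0679 for Etv5. Leaving out sh-Gpc4 library 1 alone gave -1.43 for Etv4 in that contrast, and leaving out library 3 alone gave -0.60.

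Counted over the 10 members, in sh-Gpc2 against sh-NT 0 separated in either direction (background 3.59% higher and 4.11% lower), and in sh-Gpc4 against sh-Gpc2 also 0 (3.5% higher and 2% lower). No member had an unadjusted edgeR p under 0.05 on the lower side, where 6.01% of genes in sh-Gpc4 against sh-NT and 0.947% in sh-Gpc2 against sh-NT had one. In sh-Gpc4 against sh-Gpc2 no member had one on either side (1.09% higher and 1.8% lower). The log2 fold change in sh-Gpc4 against sh-NT was positive for 2 members (52.8% of all genes) and negative for 8 (47.2%). In sh-Gpc2 against sh-NT it was positive for 3 (50.7%) and negative for 7 (49.3%), and between sh-Gpc4 and sh-Gpc2 it was positive for 2 (49.5%) and negative for 8 (50.5%). The members' medians were -0.28, -0.07 and -0.19 in these contrasts, against 0.02, 0.003 and -0.002 over all genes tested.

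**Figure D2:**
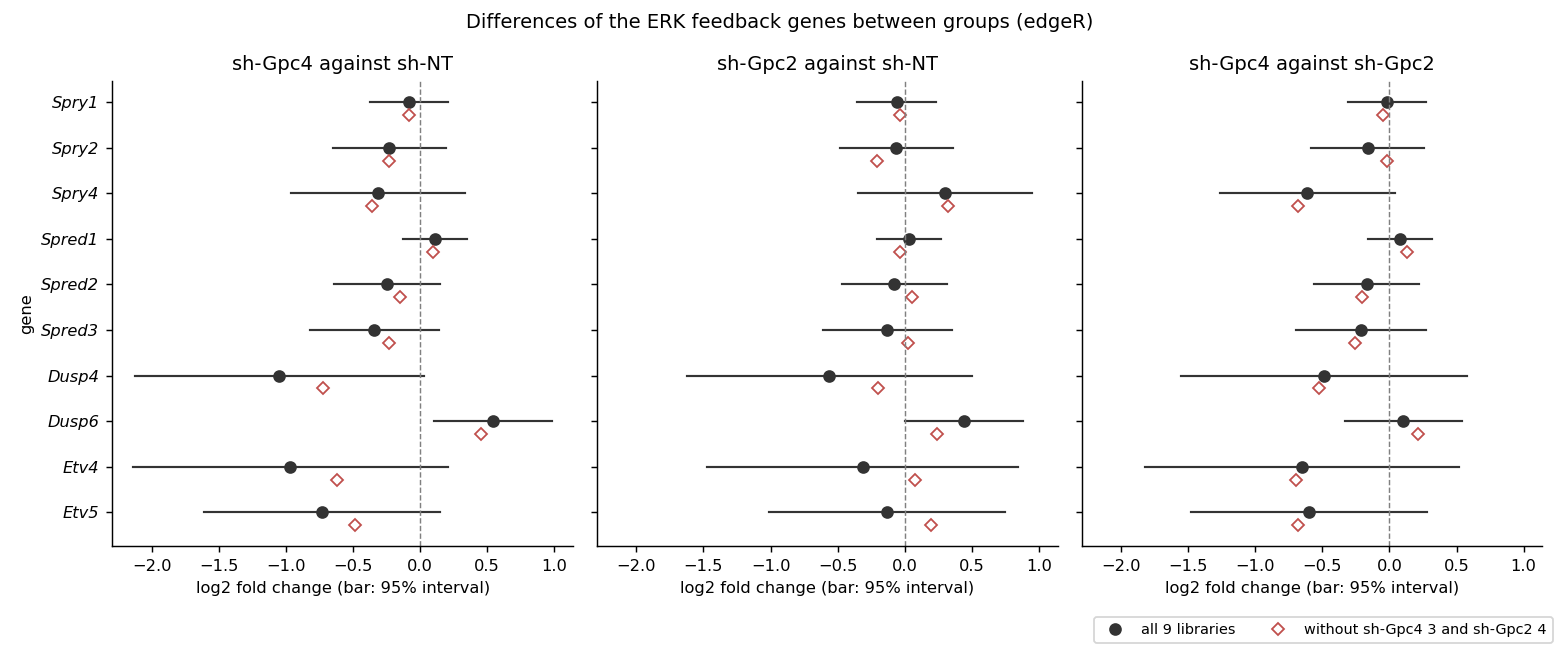
Log2 fold change (x axis) of each feedback gene in sh-Gpc4 and in sh-Gpc2 against sh-NT and between sh-Gpc4 and sh-Gpc2; filled points are edgeR estimates from all 9 libraries with 95% intervals, and open diamonds are estimates without sh-Gpc4 library 3 and sh-Gpc2 library 4. The Dusp6 interval lies above 0 in both contrasts with sh-NT, and the wide intervals of Dusp4, Etv4 and Etv5 include 0 in all 3.

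The Sprouty genes, whose products are inhibitors of receptor tyrosine kinase signalling, differed among themselves in spread, Spry4 being the most variable. Spry2 (ENSMUSG00000022114, chr14:105891947-105896819, minus strand), the most abundant of them, was at 30.1, 32.3 and 35.1 CPM in sh-Gpc4, at 26.6, 39.8 and 42.7 CPM in sh-Gpc2 and at 33.9, 34.3 and 45.9 CPM in sh-NT. The groups overlapped, and the log2 fold change was -0.23 (SE 0.19, 95% interval -0.65 to 0.19) in sh-Gpc4 and -0.06 (SE 0.19, 95% interval -0.49 to 0.36) in sh-Gpc2, both against sh-NT. Of the 2 libraries with the lowest Etv4 and Etv5, sh-Gpc2 library 4 held the second highest level of Spry2. Spry1 (ENSMUSG00000037211, chr3:37639947-37644598, plus strand) had the narrowest range of the Sprouty genes, at 7.11, 6.22 and 5.63 CPM in sh-Gpc4, at 6.80, 6.39 and 6.02 CPM in sh-Gpc2 and at 6.76, 6.48 and 6.79 CPM in sh-NT. Its log2 fold change was -0.08 (SE 0.13) in sh-Gpc4 and -0.06 (SE 0.13) in sh-Gpc2 against sh-NT. The 95% intervals of Spry1, -0.37 to 0.21 in sh-Gpc4 and -0.35 to 0.23 in sh-Gpc2, were narrower than those of the phosphatases and ETS genes. They hold for this fit alone. With each library's GC trend taken out, the sh-Gpc4 value of Spry1 was 0.22.

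Spry4 (ENSMUSG00000024427), with Spred3 the lowest member per kilobase in sh-NT, gave the largest difference between the hairpin groups among the Sprouty genes. It was at 3.60, 4.20 and 4.20 CPM in sh-Gpc4, at 3.83, 8.76 and 5.74 CPM in sh-Gpc2 and at 5.34, 5.94 and 3.63 CPM in sh-NT. The sh-Gpc4 libraries were close together near the lowest sh-NT library, and sh-Gpc2 library 2 stood above all others. The log2 fold change was -0.31 (SE 0.29) in sh-Gpc4 and 0.30 (SE 0.29) in sh-Gpc2, each against sh-NT. Between sh-Gpc4 and sh-Gpc2 it was -0.61 (SE 0.29, 95% interval -1.26 to 0.04), where the edgeR p was 0.0623 and the adjusted p 0.966. Without sh-Gpc2 library 2 alone this value was -0.26, and that of sh-Gpc2 against sh-NT turned to -0.0569. Misc RNA genes overlap Spry4, and an unclassified gene overlaps Spry1, on the opposite strand; whether the reads were counted by strand is not given, so such reads cannot be told apart.

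The Spred genes include the most even member. Spred1 (ENSMUSG00000027351, chr2:117121374-117182279, plus strand) was at 35.7, 38.9 and 40.8 CPM in sh-Gpc4, at 33.6, 36.5 and 39.0 CPM in sh-Gpc2 and at 35.5, 32.7 and 38.6 CPM in sh-NT. Against sh-NT its log2 fold change was 0.11 (SE 0.11, with an interval of -0.13 to 0.35) in sh-Gpc4 and 0.03 (SE 0.11, -0.21 to 0.27) in sh-Gpc2. Spred2 (ENSMUSG00000045671, chr11:19924375-20024026, plus strand) was at 8.65, 6.30 and 7.36 CPM in sh-Gpc4, at 9.62, 8.86 and 6.59 CPM in sh-Gpc2 and at 8.30, 8.59 and 9.57 CPM in sh-NT. Spred3 (ENSMUSG00000037239, chr7:29158829-29170411, minus strand) was at 6.53, 4.33 and 4.80 CPM in sh-Gpc4, at 6.25, 7.29 and 4.54 CPM in sh-Gpc2 and at 6.68, 5.79 and 7.34 CPM in sh-NT. Both were lowest in sh-Gpc4 library 3 and sh-Gpc2 library 4, as Dusp4, Etv4 and Etv5 were, but over a narrower range. The log2 fold change in sh-Gpc4 against sh-NT was -0.25 (SE 0.18) for Spred2 and -0.34 (SE 0.21) for Spred3, and in sh-Gpc2 against sh-NT it was -0.08 (SE 0.18) for Spred2 and -0.13 (SE 0.21) for Spred3. Without these 2 libraries the sh-Gpc4 values were -0.15 for Spred2 and -0.23 for Spred3, and the sh-Gpc2 values 0.0536 for Spred2 and 0.0231 for Spred3. Reads of Spred3 may include those of Ggn, a protein-coding gene on the opposite strand.

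**Figure D3:**
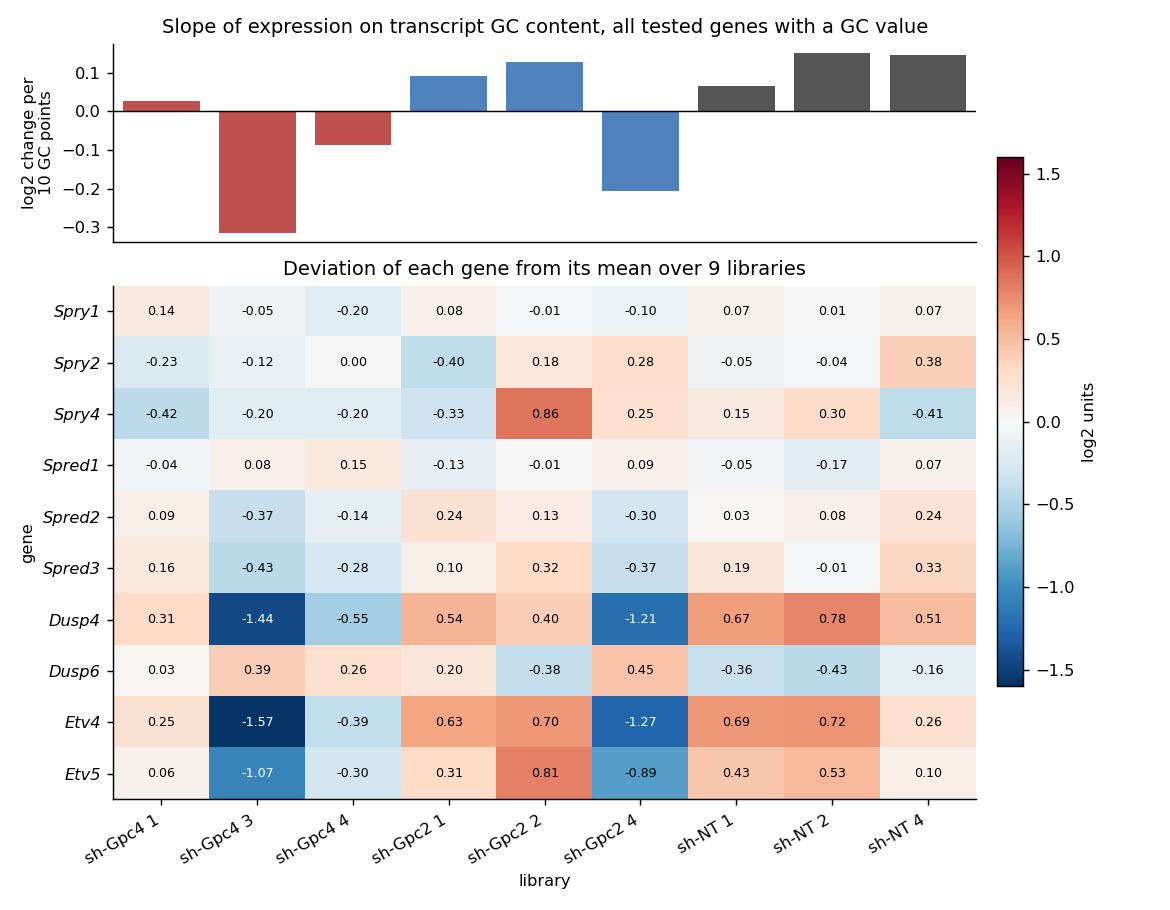
Upper panel: slope of log2 CPM on transcript GC content (y axis, log2 units per 10 GC points) in each library over the tested genes with a GC value. Lower panel: deviation of each feedback gene (rows) from its own mean over the 9 libraries, in log2 units; Dusp4, Etv4 and Etv5 are 0.89 to 1.57 log2 units below their means in sh-Gpc4 library 3 and sh-Gpc2 library 4, which also have the steepest negative slopes, while Dusp6 is 0.39 and 0.45 above its mean there.

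Within each of the 3 groups, the order of the libraries by Dusp6 was the reverse of their order by Etv5. The ratio of Dusp6 to Etv5 CPM was 0.939, 2.65 and 1.41 in sh-Gpc4, 0.891, 0.421 and 2.43 in sh-Gpc2 and 0.554, 0.493 and 0.802 in sh-NT. Every sh-Gpc4 library exceeded every sh-NT library, which follows from the separate values of Dusp6 and Etv5 given above and is no further result. The sh-Gpc2 libraries spanned the whole range from the lowest ratio to the second highest. This ratio was not among the planned measures. Correlations between members had been planned over all 9 libraries. As 2 libraries formed a cluster of their own, correlations were computed over the other 7 only, a choice made after seeing the data. Of all 45 pairs of members 25 were positive and 20 negative. After Benjamini-Hochberg adjustment over the 45 pairs 1 stayed under 0.05, Etv4 with Etv5 (Pearson's r = 0.913, permutation p = 0.000992, adjusted 0.0446). Its Spearman's rho was 0.964 (permutation p = 0.00278, adjusted 0.125), and r was 0.779 over the 5 libraries left without the 2 farthest from the median of Etv4. Dusp6 with Etv5 had r = -0.789 (permutation p = 0.0367, adjusted 0.260) and rho = -0.857 (permutation p = 0.0238, adjusted 0.357), and r = -0.849 over the 5 libraries left without the 2 farthest from the median of Dusp6. On deviations from group means r was 0.785 for Etv4 with Etv5 and -0.958 for Dusp6 with Etv5. These libraries share their groups, their library composition and their GC trend.

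The transcripts of Etv4 (58.7% GC), Spry1 (56.7%), Dusp4 (56.0%) and Spred3 (55.4%) were the richest in GC among the members, where the median over tested genes was 48.9%. Etv5 (51.8%), Spred2 (51.3%), Spry4 (51.2%) and Dusp6 (49.0%) lay nearer to that median, and Spry2 (46.2%) and Spred1 (41.2%) below it. With each library's GC trend taken out, the log2 fold changes in sh-Gpc4 against sh-NT were -0.86 for Dusp4, -0.70 for Etv4, -0.67 for Etv5 and 0.57 for Dusp6. The part of GC content in these values was not tested beyond this.

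The rest of the pathway was read from the same fit, as lists of known components. Of 14 FGF ligands 8 were tested, and the 14 together summed to 4.86 to 4.92 CPM in sh-Gpc4, 4.35 to 5.07 CPM in sh-Gpc2 and 4.91 to 5.48 CPM in sh-NT. The tested ligands had a median log2 fold change of -0.10 in sh-Gpc4 and 0.05 in sh-Gpc2 against sh-NT. Fgf2 averaged 1.68 ± 0.176 CPM in sh-Gpc4, 1.59 ± 0.142 CPM in sh-Gpc2 and 1.82 ± 0.247 CPM in sh-NT, and Fgf9 was below 0.5 CPM in every library. All 5 receptor genes were tested, with 4 of 5 negative in sh-Gpc4 against sh-NT (median -0.16). Fgfr1 was even, at 71.3 ± 8.66 CPM in sh-Gpc4, 72.8 ± 6.06 CPM in sh-Gpc2 and 69.5 ± 2.37 CPM in sh-NT. Fgfr3, a receptor of radial glia, had a log2 fold change of -1.12 (SE 0.55) in sh-Gpc4 against sh-NT and was lowest in the same 2 libraries as Etv4. It was at 19.6, 6.54 and 10.4 CPM in sh-Gpc4, 25.6, 22.7 and 7.26 CPM in sh-Gpc2 and 23.3, 41.3 and 14.51 CPM in sh-NT, so both hairpin groups overlapped sh-NT. Without the 2 libraries apart the sh-Gpc4 value was -0.83 (SE 0.41).

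Of the 23 genes that carry the signal from receptor to ERK, all were tested and 0 passed the threshold in edgeR in either contrast with sh-NT. Their log2 fold changes were negative for 14 of 23 in sh-Gpc4 (median -0.19) and for 17 of 23 in sh-Gpc2 (median -0.11). In sh-Gpc4, 9 of the 23 lay below every sh-NT library and 2 above, beside the 13.2% and 10.8% of all genes. Frs2, the adaptor that links FGF receptors to RAS, was at 49.6, 40.8 and 40.8 CPM in sh-Gpc4, at 50.4, 49.2 and 40.6 CPM in sh-Gpc2 and at 62.2, 60.7 and 64.9 CPM in sh-NT. Both hairpin groups lay wholly below sh-NT. The log2 fold change was -0.52 (SE 0.12, edgeR p 0.00151, adjusted p 0.488) in sh-Gpc4 and -0.42 (SE 0.12, edgeR adjusted p 0.968) in sh-Gpc2. In sh-Gpc4 against sh-NT, Frs2 was among the genes that DESeq2 called, with an adjusted p of 0.0454. Its adjusted p in limma voom was 0.0531. Ptpn11, the SHP2 phosphatase that promotes RAS activation, had a log2 fold change of -0.45 (SE 0.19) and Map2k1, which encodes MEK1, one of 0.03 (SE 0.13) in sh-Gpc4 against sh-NT.

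Of 20 further brakes on RAS and ERK 19 were tested, and their directions were split in sh-Gpc4 against sh-NT, with 10 positive and 9 negative (median 0.02). In sh-Gpc4, 5 of the 19 lay below every sh-NT library and 2 above, beside 13.2% and 10.8% of all genes. Cic, which encodes the repressor itself, was at 22.6, 8.41 and 13.5 CPM in sh-Gpc4, at 29.4, 22.2 and 9.24 CPM in sh-Gpc2 and at 24.0, 30.1 and 24.0 CPM in sh-NT, again lowest in sh-Gpc4 library 3 and sh-Gpc2 library 4. Its log2 fold change in sh-Gpc4 against sh-NT was -0.82 (SE 0.42), and -0.54 (SE 0.23) without those 2 libraries. Dusp1, an immediate early phosphatase that also acts on JNK and p38, averaged 389 ± 75.7 CPM in sh-Gpc4, 419 ± 51.7 CPM in sh-Gpc2 and 319 ± 19.3 CPM in sh-NT. Its log2 fold change was 0.29 (SE 0.15) in sh-Gpc4 and 0.40 (SE 0.15) in sh-Gpc2. Dusp14 was even, with 0.03 (SE 0.08) in sh-Gpc4 and -0.08 (SE 0.08) in sh-Gpc2, and Nf1, which encodes neurofibromin, had 0.19 (SE 0.10) in sh-Gpc4 and 0.11 (SE 0.10) in sh-Gpc2. Il17rd, the FGF antagonist also called Sef, was at 0.75 to 1.34 CPM and Dusp5 at 0.53 to 1.47 CPM. In sh-Gpc4 all libraries lay below sh-NT for Il17rd (log2 fold change -0.39, SE 0.21) and above it for Dusp5 (0.20, SE 0.33).

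Of 21 further genes that ERK induces 20 were tested, 12 of them negative in sh-Gpc4 (median -0.06) and 11 in sh-Gpc2 (median -0.01) against sh-NT. In sh-Gpc4, 5 of the 20 lay below every sh-NT library and 0 above, beside 13.2% and 10.8% of all genes. The immediate early transcription factors Egr1 and Fos lay in opposite directions. Egr1 was at 342, 125 and 221 CPM in sh-Gpc4, at 362, 290 and 206 CPM in sh-Gpc2 and at 405, 469 and 382 CPM in sh-NT, below sh-NT in every library of both groups. Its log2 fold change was -0.87 (SE 0.32) in sh-Gpc4, and -0.58 (SE 0.19) without the 2 libraries apart. Fos averaged 409 ± 97.2 CPM in sh-Gpc4, 483 ± 60.9 CPM in sh-Gpc2 and 329 ± 13.3 CPM in sh-NT, with a log2 fold change of 0.31 (SE 0.16) in sh-Gpc4 and 0.56 (SE 0.16) in sh-Gpc2. Etv1, the third member of the subfamily of Etv4 and Etv5, overlapped sh-NT in both hairpin groups. It was at 37.6 ± 2.02 CPM in sh-Gpc4, 43.0 ± 8.92 CPM in sh-Gpc2 and 39.7 ± 3.15 CPM in sh-NT. Like Etv5, it was lowest in sh-Gpc4 library 3 (35.5 CPM) and highest in sh-Gpc2 library 2 (53.3 CPM), but over a narrower range. Ccnd1, the cyclin of early G1, averaged 85.5 ± 14.0 CPM in sh-Gpc4, 119 ± 47.9 CPM in sh-Gpc2 and 121 ± 13.5 CPM in sh-NT, and Flrt3, which encodes an FGF receptor partner, 265 ± 31.5 CPM in sh-Gpc4, 221 ± 33.5 CPM in sh-Gpc2 and 246 ± 33.6 CPM in sh-NT.

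**Figure D4:**
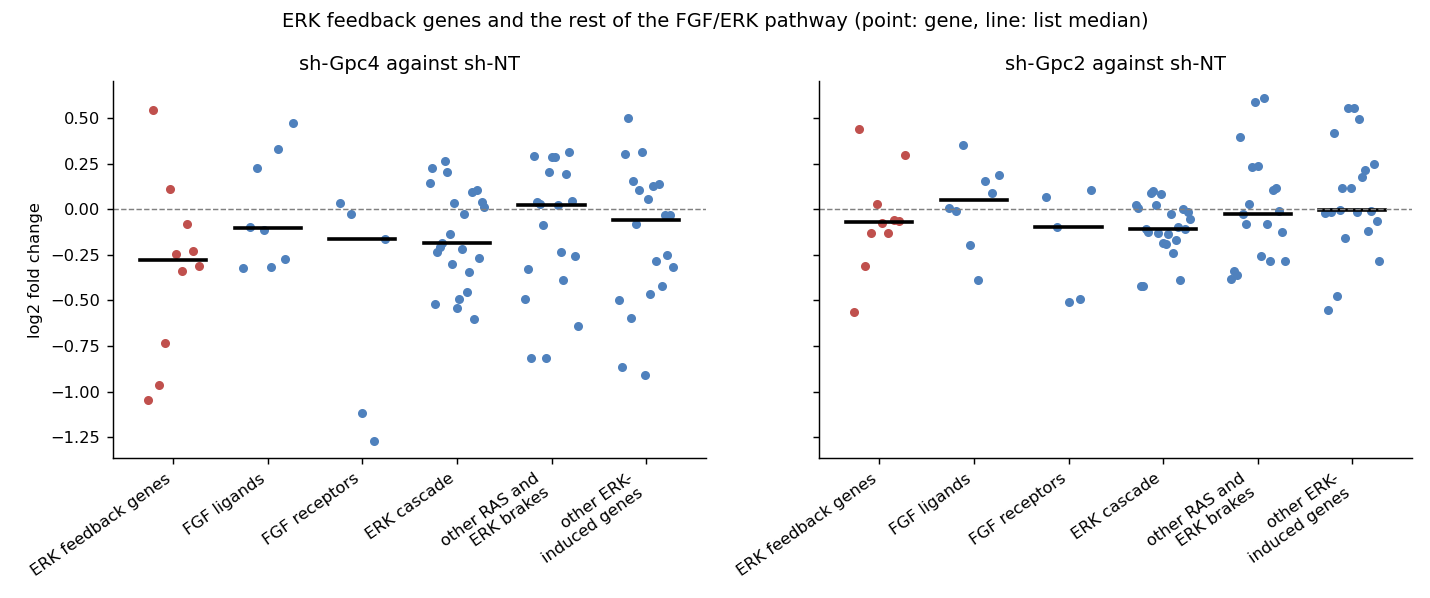
Log2 fold change (y axis) of each tested gene (points) of the feedback genes, FGF ligands, FGF receptors, ERK cascade, further RAS and ERK brakes and further ERK-induced genes in sh-Gpc4 (left) and sh-Gpc2 (right), each against sh-NT; black lines are list medians. The feedback genes span -1.05 to 0.55 in sh-Gpc4, with a median of -0.28.

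Cell markers moved with some of these values. The summed level of 12 radial glia markers was 2189 to 2969 CPM in sh-Gpc4, 2623 to 3674 CPM in sh-Gpc2 and 2702 to 2987 CPM in sh-NT, lowest in sh-Gpc4 library 3, where Etv4 and Etv5 were lowest, and highest in sh-Gpc2 library 2, where Etv5 and Spry4 were highest. Hes5, a Notch target of radial glia, was at 148 CPM in sh-Gpc4 library 3 and 834 CPM in sh-Gpc2 library 2, whereas Pax6 (166 and 177 CPM) and Sox2 (18.4 and 23.1 CPM) differed less between them. The 8 intermediate progenitor markers summed to 1036 to 1157 CPM in sh-Gpc4, 969 to 1089 CPM in sh-Gpc2 and 966 to 1065 CPM in sh-NT. The 10 markers of newborn and excitatory neurons summed to 4072 to 4701 CPM in sh-Gpc4, 3918 to 4454 CPM in sh-Gpc2 and 4150 to 4960 CPM in sh-NT. Of these 10, 8 were negative in either contrast with sh-NT (medians -0.09 in sh-Gpc4 and -0.15 in sh-Gpc2). The 10 microglia markers summed to 1013 to 1542 CPM in sh-Gpc4, 447 to 1406 CPM in sh-Gpc2 and 815 to 1215 CPM in sh-NT, lowest in sh-Gpc2 library 2, and 9 of 10 had a positive log2 fold change in sh-Gpc4. The 11 dissociation stress genes summed to 1320 to 2187 CPM in sh-Gpc4, 1843 to 2032 CPM in sh-Gpc2 and 1329 to 1621 CPM in sh-NT, with 8 of 11 positive in sh-Gpc4 and 11 of 11 in sh-Gpc2. Oligodendrocyte precursor markers were scarce, with summed levels of 1.27 to 4.91 CPM in sh-Gpc4, 4.64 to 14.48 CPM in sh-Gpc2 and 5.41 to 16.3 CPM in sh-NT and Olig2 at 0.21 to 3.13 CPM. Of the 4 tested, 4 were negative in sh-Gpc4 against sh-NT (median -1.49) and 3 in sh-Gpc2 against sh-NT (median -0.02). In sh-Gpc4, 3 of the 4 lay below every sh-NT library, beside 13.2% of all genes. The 6 mural markers summed to 9.43 to 13.9 CPM in sh-Gpc4, 8.34 to 20.4 CPM in sh-Gpc2 and 20.02 to 26.7 CPM in sh-NT. They were negative for 6 of 6 in both contrasts with sh-NT and lowest in sh-Gpc2 library 4 and sh-Gpc4 library 3, the libraries with the lowest Dusp4, Etv4 and Etv5. The 6 endothelial markers summed to 5.41 to 7.73 CPM in sh-Gpc4, 5.68 to 7.66 CPM in sh-Gpc2 and 4.07 to 9.57 CPM in sh-NT, with 5 of 6 negative in both contrasts. GABAergic markers summed to 5.89 to 7.65 CPM in sh-Gpc4, 7.84 to 10.4 CPM in sh-Gpc2 and 6.21 to 40.5 CPM in sh-NT, with sh-NT library 1 highest. The part of these cell types and of the stress genes in the values of the feedback genes was not tested.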

How the data were processed

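RNA of 9 libraries was analysed. Per the labels' protocols, a kit for small samples served for RNA isolation and a low-input kit for library preparation. The authors deposited raw counts of reads per Ensembl gene, made with featureCounts of Subread on GRCm38 or mm10 per the submitters' processing notes. The aligner, the annotation release, the versions and the strand setting were not given in the sources used here. Symbols, coordinates and transcript GC content came from GENCODE M21, which matched 51486 of 78275 IDs (65.8%), all 10 members among them. The 9 libraries hold 48045603 to 66538437 reads; counting error was not separated from the spread between libraries. No 2 libraries of a group agreed within sampling noise.

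Counts were tested as deposited in R 4.3.3 with the edgeR 4.0.16 quasi-likelihood test, TMM normalization, the default filter on low counts, 1 coefficient per group and all 9 libraries in 1 fit, with Benjamini-Hochberg adjustment over the 27773 genes tested and a threshold of 0.05. A contrast therefore also carries the spread of the group it does not compare. SE values were derived from each log2 fold change and its F statistic. Single genes also had a two-sided exact permutation test on CPM. The steps were tested on simulated counts. Alternatives were DESeq2 1.42.0 size factors and its Wald test, limma 3.58.1 voom with sample weights, other filters, fits of 2 groups, a replicate block by column number, and leaving out each library. The GC trend (a spline with 6 degrees of freedom over 22126 genes) and the added promoter words were chosen after seeing the data. So were the fit without 2 libraries and the limit of the correlations to the other 7. The members and the gene lists were chosen with earlier results of these data known. The named genes are the 10 members and a fixed choice from each list; Spry3 had no ID, and the single values of 1 list gene are not reported here. The planned comparison of member proteins was not made. Promoter windows came from RefSeq (GRCm38.p6).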

Additional observations from a re-analysis of the deposited data

How the results depend on the processing

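The count of members past the threshold was 0 in all 3 contrasts under every alternative run. Over all genes the count was 0 in edgeR, and 45 in the DESeq2 Wald test of sh-Gpc4 against sh-NT; the cause was not tested. Of 540 member values under alternatives 513 kept their direction. In sh-Gpc4 against sh-NT, Dusp4, Dusp6, Etv4 and Etv5 kept theirs under all 18 alternatives, with ranges on leaving out 1 library of -1.59 to -0.71, 0.47 to 0.64, -1.43 to -0.60 and -1.003 to -0.47. Removing the GC trend turned Spry1 to 0.22 and Spred1 to -0.0123 in that contrast, Spry1 to 0.0895 and Spred1 to -0.0271 in sh-Gpc2 against sh-NT, and Spry1 to 0.13 in sh-Gpc4 against sh-Gpc2. In sh-Gpc2 against sh-NT, voom gave 0.003 for Spred2, and the fit without the 2 libraries apart gave -0.0356 for Spred1, 0.0536 for Spred2, 0.0231 for Spred3, 0.0778 for Etv4 and 0.20 for Etv5. Leaving out 1 library there gave ranges of -0.19 to 0.12 for Spry2, -0.0569 to 0.55 for Spry4, -0.0264 to 0.0932 for Spred1, -0.19 to 0.0691 for Spred2, -0.29 to 0.0394 for Spred3, -0.60 to 0.0928 for Etv4 and -0.54 to 0.21 for Etv5. In sh-Gpc4 against sh-Gpc2 the ranges were -0.11 to 0.0576 for Spry1 and -0.10 to 0.30 for Dusp6.

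Whether the column numbers pair the libraries is not stated. Deviations of same-numbered libraries from their group means correlated at -0.101 to 0.682. With 3 libraries in a group these correlations cannot decide whether the libraries are paired. With a replicate block by number, 0 genes passed the threshold, and the values in sh-Gpc4 against sh-NT were -0.67 for Dusp4, 0.31 for Dusp6, -0.44 for Etv4 and -0.26 for Etv5. In sh-Gpc4 against sh-Gpc2 the block turned Dusp4 to 0.0574, Dusp6 to -0.10, Etv4 to 0.0372 and Etv5 to 0.00162. Number 3 occurs in sh-Gpc4 alone, so the block term for it takes sh-Gpc4 library 3 out of the contrasts. The values with the block therefore do not separate pairing from the loss of that library. Between libraries of a group the chi-square per degree of freedom over genes was 8.57 to 93.4, a larger spread than counting error alone gives. The part of counting error in the spread of single members was not tested.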

Other observations

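Spry4 and the low-level transcription factor Olig1 of oligodendrocyte precursors were both high in sh-Gpc2 library 2 and sh-NT library 2, a pair noticed after the values had been seen. Olig1 was at 3.44, 0.39 and 1.99 CPM in sh-Gpc4, at 2.24, 9.38 and 6.51 CPM in sh-Gpc2 and at 2.83, 11.2 and 4.53 CPM in sh-NT, with Spry4 at 8.76 CPM in sh-Gpc2 library 2 and 5.94 CPM in sh-NT library 2. No relation between them was tested.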
